A study of Mus musculus with 10 samples.

Results

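The regions described here are the 5179 genomic stretches called as peaks in all 4 libraries of MYC-driven liver tumours without Cre (WT lists). They were chosen from 12266 regions seen in any of 10 deposited peak lists, of which 42.2% met that criterion. Overlapping rows were first merged within each list on chromosomes 1 to 19 and X, and the lists were then joined into 1 union. For each WT region the number of lists that also called it, from 0 to 6, was counted among the 6 tumours labelled as carrying both Alb-cre and floxed Arid1a (Cre lists). Strength in WT was the median over the 4 WT lists of a region's percentile by the authors' −log10 p, here called its WT rank, and width was measured in the WT lists. Places were assigned from RefSeq protein-coding genes of GRCm38.p6, the assembly of mm10: within 1000 bp of either gene end (gene end), inside a gene (gene body) or elsewhere (intergenic).

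ATAC-seq maps accessible DNA by letting a transposase insert sequencing adapters into it, and was run on frozen liver tumours of FVB mice, collected at death after doxycycline had been withdrawn. All tumours carried LAP-tTA, which expresses a doxycycline-repressed activator in liver cells, and a TRE-MYC transgene that it drives. The WT group was LAP-tTA; Arid1a fl/fl; TRE-MYC without Cre, at about 55 days (n = 4), so its Arid1a alleles were floxed and not exposed to Cre. The Het group was Arid1a fl/+ with Alb-cre, at about 70 days (n = 3). The Homo group was Arid1a fl/fl with Alb-cre, at about 100 days (n = 3), and Alb-cre acts in cells that use the albumin promoter. Age, Cre and Arid1a genotype differ together between the WT and Cre groups and cannot be told apart. The labels number the libraries without naming a mouse for each, so p-values measure the spread between libraries.

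ARID1A is the largest subunit of the BAF form of SWI/SNF, a remodelling complex that uses ATP to slide or evict nucleosomes and so keeps promoters and, above all, enhancers accessible. MYC pairs with MAX and binds E-boxes, most tightly CACGTG, at the promoters of genes for growth and ribosome production. An ATAC-seq peak list records where accessibility passed a threshold, so a missing region may be less open or fall short because fewer reads were sequenced.

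Each library is represented by its background, the smallest number of tags expected per 200 bp that the deposited values imply, which rises with depth. It ran from 0.985 to 1.75 in WT and from 0.464 to 1.61 in Cre lists, a 3.76-fold range in all. The lists held 6731 to 9526 regions in WT and 1748 to 9587 in Cre. Homo 3 stood apart from the other 5 Cre libraries, with the most regions of all 10 lists and a background of 1.61, and it is given separately wherever a result rests on it. Of 8 hepatocyte marker genes, 1 to 5 had a gene-end region in WT lists and 0 to 4 in Cre lists. Alb, Apoa1, Ttr and Cebpa were among those called in at least 1 list, and the defining gene Hnf4a was in none. No endothelial, stellate or lymphocyte marker was called in any list. Spi1 was called in Homo 3 only, Nfe2 in WT 1, WT 2 and Homo 3, and the biliary markers Epcam and Onecut1 in at most 1 of 5 markers per list. The part of other cell types in the results was not tested.

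Promoters of WT regions that ended in different classes are shown before the counts, to give the base composition and motifs that the later comparison turns on. Each line is the 250 bases before an annotated start from the RefSeq promoter table (GRCm38.p6), written 5′ to 3′ on the strand of the gene. Capitals mark every match on either strand to 8 motifs: the CCAAT box, the GC box GGGCGG, the TATA box as TATAAA, the cyclic AMP element TGACGTCA, the E-box CACGTG, the ETS site CCGGAAG, the AP-1 site TGANTCA and the NRF1 motif. Overlapping matches are capitalised as 1 stretch. The first 4 lay in regions called in 4 of 4 WT and 0 of 6 Cre lists. They are Cklf (chr8:104250611-104250860, plus strand), Mrpl1 (chr5:96209865-96210114, plus), Rad18 (chr6:112696671-112696920, minus) and Irf2 (chr8:46739495-46739744, plus).
Cklf: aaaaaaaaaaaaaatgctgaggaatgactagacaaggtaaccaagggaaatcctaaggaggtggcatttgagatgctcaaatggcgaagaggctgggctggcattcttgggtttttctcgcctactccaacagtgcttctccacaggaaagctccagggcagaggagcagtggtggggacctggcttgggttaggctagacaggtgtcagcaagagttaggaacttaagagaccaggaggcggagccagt
Mrpl1: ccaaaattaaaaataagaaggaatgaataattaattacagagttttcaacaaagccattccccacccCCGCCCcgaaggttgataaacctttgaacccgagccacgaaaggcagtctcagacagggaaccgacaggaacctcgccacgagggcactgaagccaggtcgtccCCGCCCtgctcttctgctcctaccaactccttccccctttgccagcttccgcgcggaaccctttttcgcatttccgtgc
Rad18: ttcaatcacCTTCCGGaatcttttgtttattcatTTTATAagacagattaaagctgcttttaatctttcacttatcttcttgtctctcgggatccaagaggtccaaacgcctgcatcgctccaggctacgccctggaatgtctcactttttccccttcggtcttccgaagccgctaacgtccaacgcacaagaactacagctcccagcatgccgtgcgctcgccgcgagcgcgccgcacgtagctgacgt
Irf2: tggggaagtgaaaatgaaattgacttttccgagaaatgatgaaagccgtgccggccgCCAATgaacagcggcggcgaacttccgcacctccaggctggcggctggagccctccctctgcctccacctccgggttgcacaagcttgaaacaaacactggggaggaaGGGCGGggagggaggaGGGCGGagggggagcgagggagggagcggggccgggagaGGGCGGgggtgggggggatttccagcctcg
Diablo (chr5:123524165-123524414, minus strand) and Copb2 (chr9:98563481-98563730, plus) lay in WT regions kept in Homo 3 alone, among the highest ranked of that class.
Diablo: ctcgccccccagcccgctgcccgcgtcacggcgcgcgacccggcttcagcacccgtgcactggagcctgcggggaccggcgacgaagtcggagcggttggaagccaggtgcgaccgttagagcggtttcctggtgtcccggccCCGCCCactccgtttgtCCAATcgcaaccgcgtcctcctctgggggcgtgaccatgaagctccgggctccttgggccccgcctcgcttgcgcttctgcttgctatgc
Copb2: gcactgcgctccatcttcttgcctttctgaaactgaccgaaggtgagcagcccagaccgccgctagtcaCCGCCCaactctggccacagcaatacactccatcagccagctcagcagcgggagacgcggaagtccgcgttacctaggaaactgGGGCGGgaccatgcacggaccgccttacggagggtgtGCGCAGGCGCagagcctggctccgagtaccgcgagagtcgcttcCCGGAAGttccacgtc
Aven (chr2:112492714-112492963, plus strand), Paip1 (chr13:119428652-119428901, plus) and Ube2j1 (chr4:33031130-33031379, plus) lay in weak WT regions that all 6 Cre lists nonetheless kept.
Aven: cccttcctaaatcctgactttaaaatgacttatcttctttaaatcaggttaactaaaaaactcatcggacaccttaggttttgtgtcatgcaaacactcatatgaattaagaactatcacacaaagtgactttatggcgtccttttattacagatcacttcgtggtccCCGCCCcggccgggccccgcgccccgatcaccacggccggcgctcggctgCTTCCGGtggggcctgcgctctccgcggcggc
Paip1: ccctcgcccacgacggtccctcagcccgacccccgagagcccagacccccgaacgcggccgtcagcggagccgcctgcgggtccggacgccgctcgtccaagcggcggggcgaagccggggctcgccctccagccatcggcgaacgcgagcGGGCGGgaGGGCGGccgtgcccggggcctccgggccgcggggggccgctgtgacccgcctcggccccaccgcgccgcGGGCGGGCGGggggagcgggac
Ube2j1: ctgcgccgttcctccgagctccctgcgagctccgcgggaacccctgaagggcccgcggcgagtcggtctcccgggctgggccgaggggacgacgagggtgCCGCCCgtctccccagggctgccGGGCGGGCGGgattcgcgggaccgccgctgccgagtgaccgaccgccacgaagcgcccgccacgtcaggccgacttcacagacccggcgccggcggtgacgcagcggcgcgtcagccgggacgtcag
The Cklf window held no match and 3 CpG dinucleotides, with 50.4% G and C. The Paip1 window held 4 matches, all GGGCGG, and 43 CpG at 82.8% G and C. Aven, at 52.0% G and C, was kept in all 6 lists, so single promoters of either class can have either composition.

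Most WT regions were kept in some Cre lists and missing from others. Only 16 of 5179 (0.309%) were kept in 0 lists, 366 (7.07%) in 1, 832 (16.1%) in 2, 1192 (23.0%) in 3, 1192 (23.0%) in 4, 934 (18.0%) in 5 and 647 (12.5%) in all 6. At least 3 lists kept 3965 (76.6%), and at least 5 kept 1581 (30.5%). The mean was 3.65 lists. The regions were selected by their WT calls, so a shortfall in other lists is built into the choice and was not tested. The less often a region was called in WT, the less often it was called in Cre lists, with a mean of 2.13 lists for the 1926 regions in 3 WT lists, 1.29 for the 1682 in 2 and 0.548 for the 2397 in 1. The 1082 regions in no WT list had a mean of 1.13, and 69.5% of them were called in Homo 3.

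**Figure D1:**
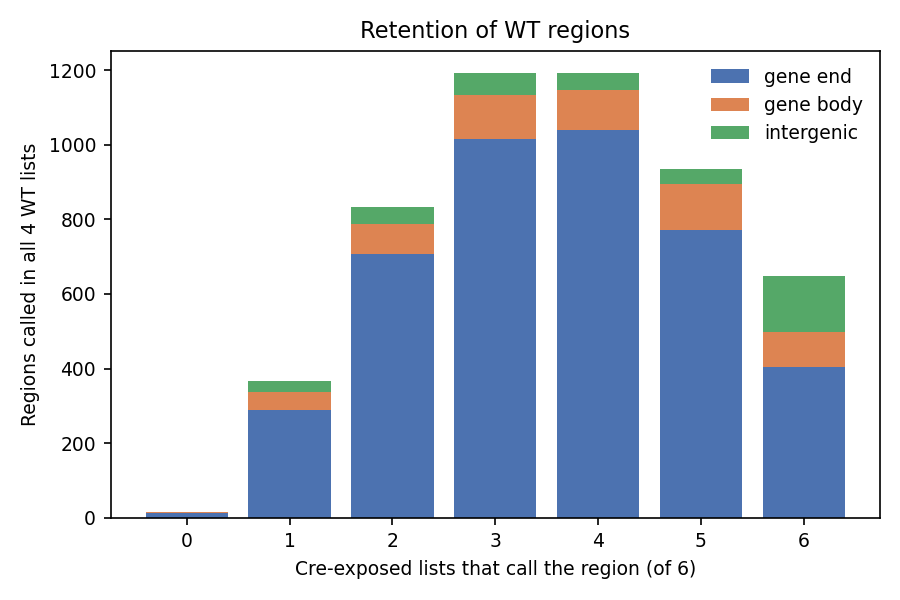
Number of the 5179 WT regions (y axis) by how many of the 6 Cre lists kept them (x axis), with bar segments for gene-end, gene-body and intergenic regions. The most frequent classes are 3 and 4 lists, with 1192 regions each, and intergenic regions form 23.0% of the 647 regions kept in all 6.

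The share kept differed widely between Cre libraries. Homo 3 kept 98.3% of the WT regions, Het 1 79.6%, Het 2 68.6%, Homo 1 52.6%, Het 3 39.6% and Homo 2 26.7%. The 2 genotypes therefore overlapped, with Homo libraries at both ends of the order. To set these shares beside a WT library measured the same way, each WT list was left out in turn and scored on the regions called in the other 3. WT 1 kept 97.5%, WT 2 93.7%, WT 3 81.3% and WT 4 95.4% of such regions. On the same regions Homo 3 kept 96.8% to 97.9%, more than the WT list left out in each of the 4 cases. Het 1 kept 78.7%, 77.6%, 73.1% and 77.8% with WT 1 to WT 4 left out, less than that WT list in each case. Homo 1 kept 46.9% to 52.3%, Het 3 34.7% to 39.2% and Homo 2 23.7% to 26.3%.

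Depth moved with these shares but its order was not theirs: Homo 1 had a higher background (0.914) than Het 1 (0.696) and kept fewer regions. When the summit pileups of every list were randomly thinned, in 1 seeded draw, to match the library of lowest background, Homo 2, the WT range on regions of the other 3 WT lists fell to 69.0% to 82.6%. Het 1 (80.7% to 83.3%), Het 2 (70.6% to 74.4%) and Homo 3 (78.7% to 80.2%) then overlapped the WT range. Het 3 (39.5% to 42.5%), Homo 1 (44.0% to 46.5%) and Homo 2 (34.2% to 37.2%) lay below every WT library. In the thinned lists 2 Het and 1 Homo library thus overlapped WT, and 1 Het and 2 Homo libraries lay below. Only the background was matched, and pileups at the strongest regions did not follow it, so depth at peaks may still differ.

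**Figure D2:**
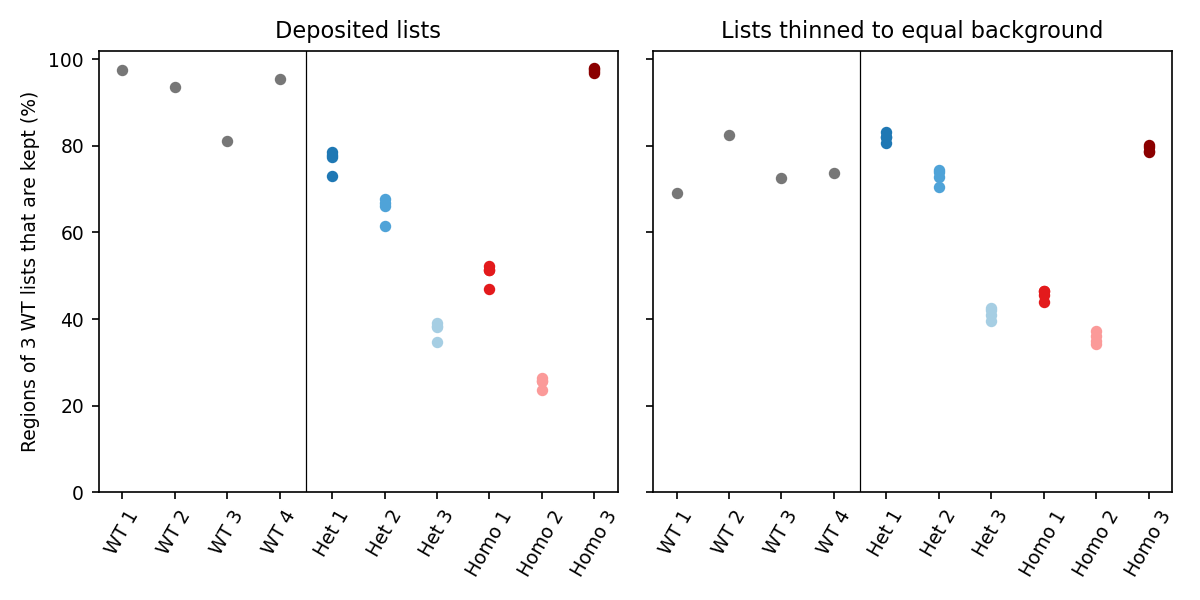
Share of regions called in 3 WT lists that a further library kept (y axis, %), for each library (x axis), from the deposited lists (left) and from lists thinned to equal background (right); WT libraries have 1 point each and Cre libraries 1 for each of the 4 sets of 3 WT lists. In the thinned lists Het 1, Het 2 and Homo 3 overlap the WT range of 69.0% to 82.6%, and Het 3, Homo 1 and Homo 2 lie below it.

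A simpler calculation scaled each WT region's pileup and background to the depth of each Cre library and asked whether −log10 p would still reach 5. By this measure, added after the data were seen, 77.2% of WT regions would have been callable in Homo 2 and 98.4% to 100% in each of the other 5. Over the 6 lists 29750 calls would have been made and 18926 were seen. Of the 3999 regions callable in every Cre library, 621 were kept in all 6 and 159 in at most 1. Scaling assumes that tags at a peak fall in the same proportion as the background, which the pileups of the strongest regions did not.

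Set in the order of the shares above, 3178 regions (61.4%) were kept by the most complete lists first, with no exception. Of the 366 regions kept in exactly 1 list, 345 were kept in Homo 3. Shares as unequal as these give much of such an order by themselves, so neither count is a result about the regions. A total of 4662 regions were kept in at least 1 Het and at least 1 Homo list. By genotype, 1 region (0.0193% of WT regions) was kept in 3 of 3 Het and 0 of 3 Homo lists. In 0 of 3 Het and 3 of 3 Homo lists 16 (0.309%) were kept. The first count rested on Homo 3, which kept nearly every region: a further 253 were kept in all 3 Het lists and in Homo 3 but in neither other Homo list, and without Homo 3 the counts were 254 and 17. Leaving out another Cre library gave 1 to 5 for the first count (5 without Homo 1, 4 without Het 3). The second was 75, 36 and 24 without Het 1 to Het 3, 41 without Homo 1 and 105 without Homo 2. Counts of this kind depend on how many regions each library kept, so none is read as a difference between genotypes.

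Per library, the Cre lists were shorter and narrower than the WT lists except in Homo 3, and none of the 4 differences passed the adjusted threshold of 0.05. WT lists held 9526, 8355, 6731 and 8490 regions. Het 1 to Het 3 held 5796, 4666 and 2583, and Homo 1 to Homo 3 held 3863, 1748 and 9587. The other 5 Cre lists, Homo 3 aside, lay below every WT list. The means were 8276 ± 1155 (SD, n = 4) in WT and 4707 ± 2792 (SD, n = 6) in Cre, with exact permutation p = 0.0571 and 0.0825 adjusted over the 4 measures (two-sided). Covered length was 3.30 ± 0.563 Mb against 1.72 ± 1.30 Mb (exact permutation p = 0.0619, adjusted 0.0825). Median region width was 364.5 ± 18.3 bp against 304.2 ± 52.9 bp (exact permutation p = 0.0619, adjusted 0.0825). Without Homo 3 all 3 differences passed, at −4544 regions (adjusted exact permutation p = 0.0212), −2.07 Mb (0.0159) and −80.0 bp (0.0159). The other 5 Cre libraries all had a lower background (0.464 to 0.914) than every WT library (0.985 to 1.75). Depth and group cannot be told apart in that comparison. Thinned to equal background, the WT lists held 5072 ± 545 regions (SD, n = 4) and the Cre lists 3603 ± 1680 (SD, n = 6), with exact permutation p = 0.133. The share of regions at gene ends was 75.7 ± 3.33% in WT and 75.4 ± 3.20% in Cre (exact permutation p = 0.905), and its sign changed when WT 3, WT 4, Homo 2 or Homo 3 was left out.

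Strong WT regions were kept more often than weak ones in each of the 6 Cre libraries. From the weakest to the strongest quintile by WT rank, the mean number of Cre lists rose from 2.67 through 3.14, 3.61 and 4.04 to 4.81. The strongest quintile minus the weakest was 40.8 percentage points in Het 1, 49.3 in Het 2, 43.5 in Het 3, 38.6 in Homo 1, 38.1 in Homo 2 and 3.77 in Homo 3. Homo 3 lay far below the other 5, since it kept 95.6% of even the weakest quintile. The mean difference was 35.7 ± 16.2 points (SD, n = 6), positive in 6 of 6, with exact paired permutation p = 0.0312, the smallest that 6 libraries allow, and 0.0469 adjusted over 3 differences. The call was lost with −log10 p of at least 10 (38.8 points, adjusted p = 0.0625, exact permutation), with at least 0.5 of a region covered (36.6 points, adjusted 0.0938) and with any 1 Cre library left out, where 5 libraries cannot give p below 0.0625. A WT list left out of the choice showed the same direction, at 7.53 points in WT 1, 18.8 in WT 2, 37.8 in WT 3 and 11.3 in WT 4. The WT 3 value lay close to those of the Cre libraries, so a gap of this size was not particular to them.

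**Figure D3:**
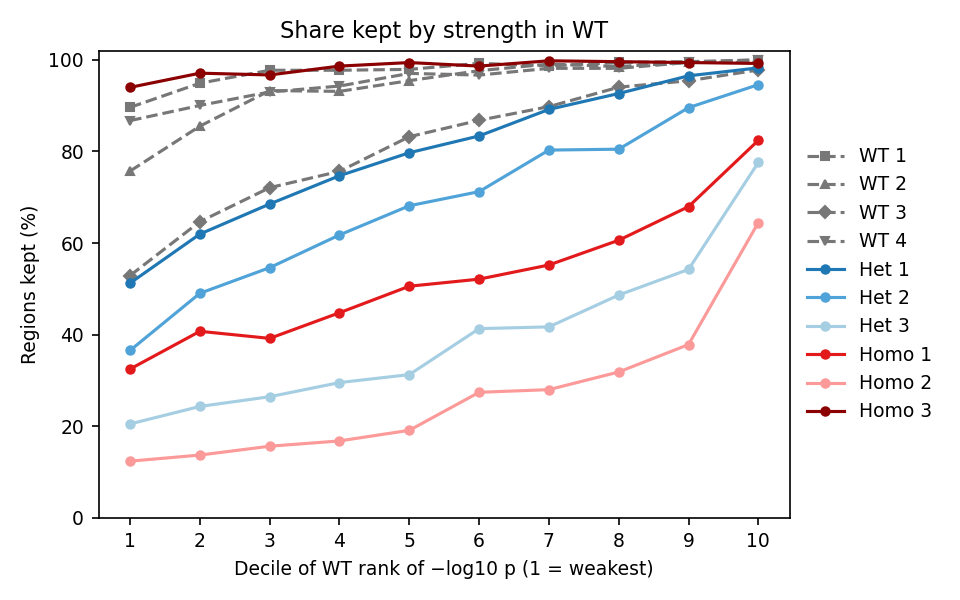
Share of regions kept (y axis, %) by decile of WT rank (x axis, 1 is the weakest) for each Cre library on the regions of all 4 WT lists (solid lines) and for each WT library on the regions of the other 3 (dashed lines). Every line rises from its first to its last decile, and Homo 3 lies above all 4 WT lines in 6 of the 10 deciles and within their range in the other 4.

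Retention also rose with width. The median WT width was 257.5 bp for regions kept in 0 lists and 334.0, 372.8, 425.2, 461.2, 496.8 and 504.0 bp for those kept in 1 to 6. The widest minus the narrowest quintile was 24.7 ± 11.5 points (SD, n = 6; 5.89 in Homo 3 to 36.3 in Het 2), positive in 6 of 6 (exact paired permutation p = 0.0312, adjusted 0.0469). A wide region can be met by a 1 bp overlap more easily, and when 0.5 of the region had to be covered the difference was −2.27 points (exact permutation p = 0.531). With the 1748 strongest rows of each list it was −18.6 points (exact permutation p = 0.0938). Split by WT rank, a step added after the data were seen, the narrow regions of the strongest quintile had the higher share, at 90.8% of lists against 81.7% (difference −9.14 points, exact permutation p = 0.25). Those narrow regions also had the higher median WT rank, at 98.0 against 89.2 for the wide ones. In the other 4 rank quintiles the wide regions were the better kept, by 12.7 to 22.3 points.

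By place, intergenic regions were the best kept over all ranks, but within ranks only in the strongest quintile. The 4238 gene-end regions were kept in a mean of 3.58 lists, the 573 gene-body regions in 3.80 and the 368 intergenic regions in 4.27. All 6 lists kept 9.51% of the gene-end, 16.6% of the gene-body and 40.5% of the intergenic regions. Gene-end minus other regions was −6.69 ± 7.11 points (SD, n = 6), negative in 5 of 6 libraries and from −17.0 in Homo 2 to 1.90 in Homo 3, and did not pass (exact paired permutation p = 0.0938). In lists thinned to equal background it was −20.2 points and passed (adjusted exact permutation p = 0.0312), and with equal numbers of rows it was −30.1 (0.0469). Only 1537 and 457 regions were in all 4 WT lists under these 2 settings. Within the strongest quintile, gene-end regions were kept in 76.1% of lists and the others in 90.6%, and 77.6% of 170 strong intergenic regions were kept in 6 of 6. Strength was not equal within this quintile, where median WT rank was 98.0 for intergenic and 87.9 for gene-end regions. Pileups at the strongest intergenic regions, described below, did not follow depth, and no filter for artefact sequence was applied. How far such regions set the difference by place was not tested. Intergenic minus gene-end regions was 16.9 points there, and −4.91, −2.28, −0.88 and −4.99 points in the quintiles from the weakest up to the next strongest, where intergenic regions were the least kept of the 3 places. None of these 5 differences passed (adjusted exact permutation p = 0.208 to 0.625). For gene-end against all other regions the sign in the weakest quintile was opposite to that over all ranks, with gene ends 3.64 points better kept in 6 of 6 libraries (exact permutation p = 0.0312, adjusted over 5 quintiles 0.156). The 3841 WT regions with an annotated start within 1000 bp, in any of the 3 places, were kept in a mean of 3.61 lists and the 635 gene-end regions without one in 3.42. Chromosome means ran from 3.42 on chromosome 7 to 3.92 on chromosome 18, and X had 3.48.

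**Figure D4:**
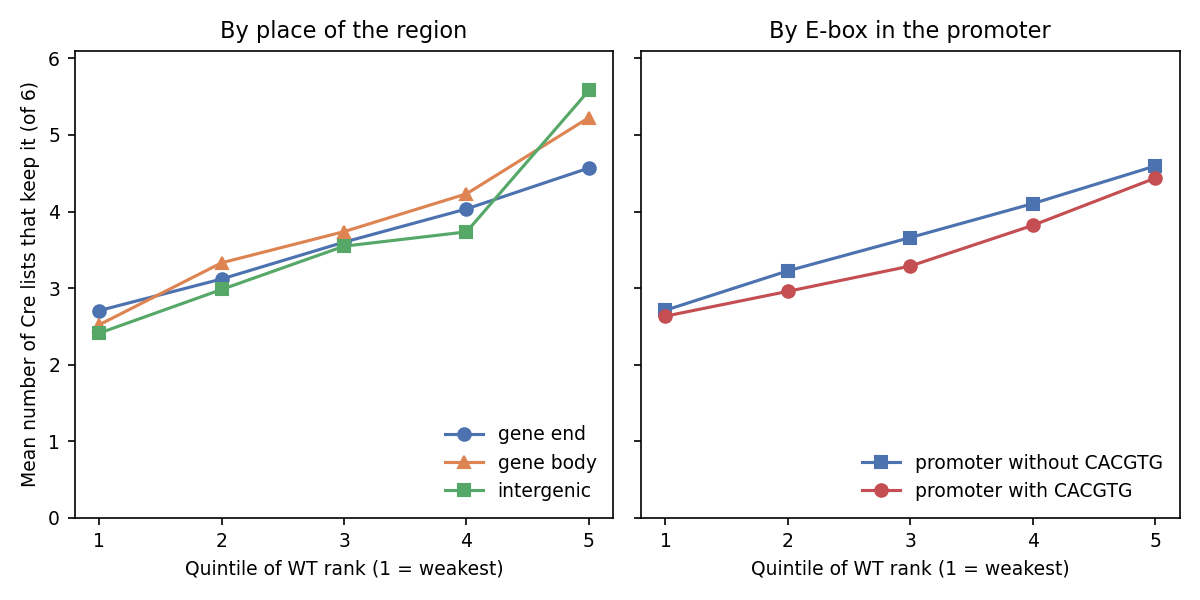
Mean number of Cre lists (y axis, of 6) that kept a WT region, by quintile of WT rank (x axis, 1 is the weakest), for gene-end, gene-body and intergenic regions (left) and for promoters with and without CACGTG (right). In the strongest quintile intergenic regions, which had the higher median WT rank, reach 5.58 and gene ends 4.57. The mean for promoters with CACGTG lies below that of the others in all 5 quintiles, though not in every library.

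The 10 highest ranked regions kept in 6 of 6 lists were all intergenic or inside genes. The highest lay on chromosome 9 (35305135 to 35305671), 29178 bp from Rpusd4, a pseudouridine synthase. Its summit pileup was 378, 379, 370 and 382 tags in WT 1 to WT 4, 357, 354 and 353 in Het 1 to Het 3, and 363, 326 and 374 in Homo 1 to Homo 3. These values hardly differed although backgrounds spanned 3.76-fold, and the maximum of each list lay between 359 and 392 tags. Others were intergenic and are named by the nearest gene end, which can be far away. These were Rab10 (137231 bp), Galc (1140423 bp), Axin2 (60784 bp), Pex2 (281679 bp) and Csmd1 (372350 bp). The rest lay inside Zc3h7a, Chl1, Cmss1 and Filip1l, and Cdk8. At the region named by Csmd1, for example, pileups were 218 to 248 in WT and 177 to 272 in Cre lists. Why pileups at these regions did not follow depth was not tested. No filter for repeated or artefact sequence was applied here, and whether these regions mark open chromatin was not tested either.

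At gene ends the strongest regions kept in all 6 lists, named after their values were seen, lay at Lars2, Sspn, Cebpb, Oasl1 and Vmn2r29. Cebpb encodes a liver transcription factor whose promoter is the source of LAP, and its region at chr2:167687581-167688030 varied more than those above. Its −log10 p was 78.6, 57.9, 33.0 and 43.7 in WT 1 to WT 4, 37.1, 24.5 and 24.0 in the Het lists and 20.5, 34.3 and 71.0 in the Homo lists. Only 1 Het or Homo value, Homo 3, exceeded the WT median, and the groups overlapped. The transgene may share sequence with Cebpb, so these tags cannot be assigned to the endogenous gene alone.

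Arid1a itself, on chromosome 4 from 133679008 to 133756769, had a WT region inside the gene at 133754054 to 133754577. Its −log10 p was 15.2, 18.7, 10.1 and 13.5 in WT 1 to WT 4, 10.9 in Het 1, 8.67 in Het 3 and 23.1 in Homo 3, and it was not called in Het 2, Homo 1 or Homo 2. A second WT region, at 133672208 to 133672966 below the gene, was kept in 5 Cre lists, all but Homo 2. Which exons are floxed is not given in the sources used here, so these regions do not check the deletion. The Homo 3 value of the region inside the gene exceeded all 4 WT values, and whether Arid1a was lost in that tumour was not tested. Alb was called in WT 2 and Homo 3 and Myc in WT 4 and Homo 1, so neither was among the WT regions.

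The 16 regions kept in no Cre list (0.13% of the union) were weak to moderate in WT, with ranks from 5.43 to 69.0 and widths from 219 to 378 bp. Of these, 13 (81.25%) lay at gene ends, close to the 81.8% of all WT regions. Cklf, a chemokine-like factor, ranked highest (chr8:104250724-104251087). Its −log10 p was 7.53, 14.5, 14.3 and 18.6 in WT 1 to WT 4, from pileups of 14, 19, 16 and 26 tags. Capn5, a calpain protease, had 18.1, 17.3, 7.21 and 9.81, and Mrpl1, a mitochondrial ribosomal protein, had 16.4, 15.6, 9.42 and 10.3. Over the 16 regions the WT summit pileups ran from 9 to 31 tags, and the Cre lists hold no value to set beside them, since a list is silent below its threshold.

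The other gene ends covered varied functions. They were Lonp1 with Rpl36 (a mitochondrial protease and a cytosolic ribosomal protein), Nans (sialic acid synthase), Plekha7 (an adherens junction protein) and Rad18 (which ubiquitinates PCNA at stalled replication forks). Further ones were Maip1 with Tyw5, Atp6v1h (part of the vacuolar ATPase), Tigd3, Irf2 (an interferon regulatory factor), Cln6 and Tcea3 (a transcription elongation factor). Agpat2, an enzyme of triglyceride synthesis, and Auts2 had a region in the gene body, and 1 region lay 20030 bp from Slc52a3, a riboflavin transporter. When scaled to each background all 16 were callable in Homo 3, and 15 in at least 3 Cre libraries. All 5179 WT regions were callable in Homo 3, and 98.4% to 100% in each library but Homo 2 (77.2%), so such counts are not particular to these 16. Thinned to equal background, Irf2 remained called in 4 of 4 WT lists, Cklf, Mrpl1, Lonp1 with Rpl36, Cln6 and the region near Slc52a3 in 3, and Atp6v1h in 0. The count of 16 leaned on Homo 3: without it 361 WT regions were kept in none of the remaining 5 lists, and without WT 3 the count was 73. Left out singly, WT 2 gave 31, and WT 4 and Het 1 each gave 26.

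**Figure D5:**
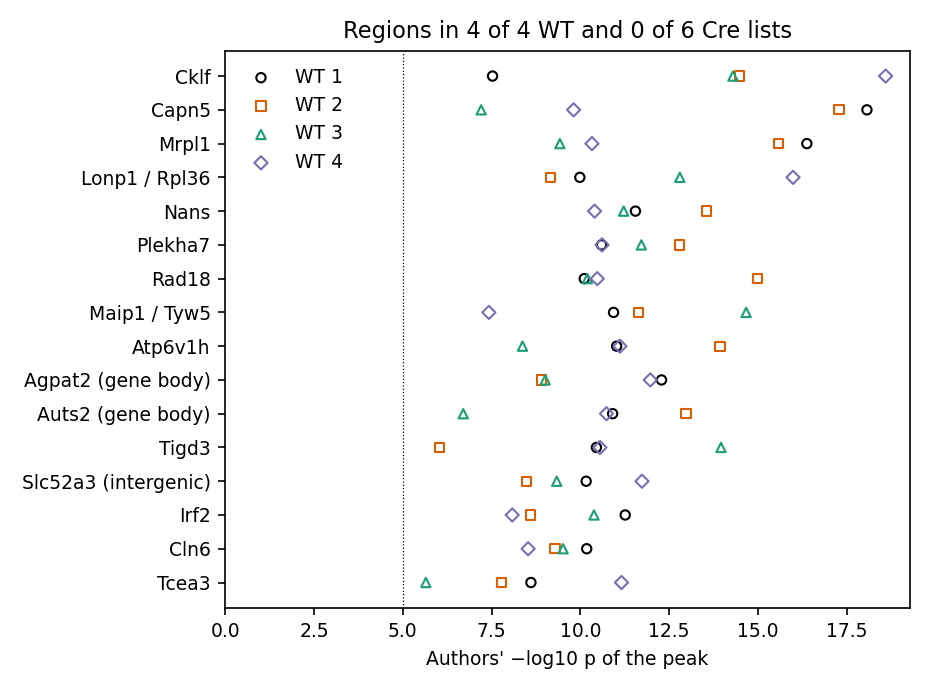
The authors' −log10 p (x axis) in each WT library for the 16 regions called in 4 of 4 WT and 0 of 6 Cre lists (y axis, named by gene and ordered by WT rank); the dotted line marks 5, the floor of the lists. Values run from 5.65 (Tcea3, WT 3) to 18.6 (Cklf, WT 4).

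At most 1 Cre list kept 382 WT regions (7.38%), and most of these were weak in WT, with a median rank of 39.7 for those in 1 list and 29.3 for those in 0. Of the 10 highest ranked, 9 were kept in Homo 3 only. Diablo, which releases caspases from inhibition, had −log10 p of 22.0, 10.9, 21.7 and 19.7 in WT 1 to WT 4 and 32.2 in Homo 3. Copb2, a subunit of the COPI vesicle coat, had 15.9 to 18.97 in WT and 18.1 in Homo 3. At Tada1, a subunit of the SAGA coactivator, the values were 27.1, 19.4, 11.1 and 30.5 in WT and 27.6 in Homo 3. In these 3 regions Homo 3 lay within or above the WT range while the other 5 Cre lists had no call. All 10 would have been callable in all 6 Cre libraries by the scaled calculation, as would 3999 of all 5179 WT regions. The others were Mid1, Prelid3b, 1700030J22Rik, Dyrk1b with Fbl (fibrillarin, of the nucleolus), Tuft1 and a region near Fam229a. Mcmbp, which binds the MCM helicase, was kept in Het 3 only, at 15.2 against 16.0 to 26.7 in WT.

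The reverse case, weak in WT but kept in 6 of 6, was led by Aven, an inhibitor of apoptosis. Its −log10 p was 12.7, 6.43, 8.46 and 7.80 in WT 1 to WT 4, 8.56, 9.81 and 7.35 in the Het lists and 13.9, 8.88 and 10.5 in the Homo lists. Paip1, which binds the poly(A)-binding protein, had 7.29 to 15.3 in WT, 12.3, 8.37 and 9.96 in Het and 11.1, 11.1 and 10.7 in Homo. The WT and Cre values of both genes overlapped throughout. Both were callable in only 3 Cre libraries by the scaled calculation, and were still called in Het 1, Het 2 and Homo 2. Of the 43, 85 and 1180 WT regions not callable in these 3 libraries, 58.1%, 31.8% and 14.0% were kept as well. Choosing regions of low WT rank kept in 6 of 6 favours such cases, so no conclusion about these genes is drawn. The remaining 8 were Chsy3, Zfp113, Cwc27 with Srek1ip1, Ulk2 (an autophagy kinase), Ube2j1 (a ubiquitin-conjugating enzyme of the endoplasmic reticulum), Syde2, Slc20a2 with Smim19, and a region near Snx6.

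Between these extremes the highest ranked regions showed the order of the libraries and exceptions to it. Psmb6, a catalytic proteasome subunit, was kept in Het 1, Het 2 and Homo 3, with −log10 p of 18.8, 12.8 and 23.2 against 14.2 to 26.7 in WT. Eif4b and Fxr2, both RNA-binding proteins of translation, were kept in these lists and Homo 1. Cwc22, a splicing factor, was instead missing from Het 1 and Het 2. Its −log10 p was 33.3 to 44.4 in WT, 12.8 in Het 3, 10.7 in Homo 1, 12.9 in Homo 2 and 40.7 in Homo 3, so the 3 lower Cre values lay well below the WT range and Homo 3 within it. Other regions of this rule lay at gene ends of Gpr155 and of Golga2 with Swi5, and inside Angptl6. Intergenic ones are named by the nearest gene, at 202940 bp from Gata6, 310608 and 330955 bp from Alkbh8 and 264003 bp from Stmn2. A weak region kept in 6 lay 53199 bp from Itm2a. A region 27728 bp from Sfi1 was kept in Homo 1 and Homo 2 alone, at −log10 p of 15.1 and 12.6 against 21.4 to 29.9 in WT.

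Homo 3 lacked 90 WT regions, of which 74 were kept in at least 1 and 43 in at least 3 other Cre lists. The 5 highest ranked of the 43 included 3 short intergenic regions on chromosome 9 between 3004061 and 3024623, with WT pileups of 241 to 298 tags. Their nearest gene was Alkbh8, 310608 to 330955 bp away, and they include the regions named by it above. The others lay inside the X-linked genes Il1rapl1 and Mid1. The Mid1 gene therefore held regions of opposite pattern. The one inside the gene (chrX:169986850-169987201) was called in all lists but Homo 3, at 16.3 to 21.7 in WT and 11.6 to 22.0 in the other 5 Cre lists. The one near the gene end (chrX:169991191-169991616) was called in WT, at 18.5 to 28.0, and in Homo 3, at 27.9, and in none of those 5. The cause was not tested.

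Looking from the Cre side, 670 regions were called in all 6 Cre lists (5.46% of the union), of which 647 (96.6%) were in all 4 WT lists, 20 (2.99%) in 3, 2 (0.299%) in 2, 1 (0.149%) in 1 and 0 (0.0%) in none. The region in 1 WT list lay at an end of Tcf7l1, a repressor in WNT signalling (chr6:72789005-72789531). Its −log10 p was 12.9 in WT 4, 9.96, 8.84 and 7.85 in the Het lists and 11.1, 9.70 and 9.90 in the Homo lists. Crtc3, a coactivator of CREB, was called in WT 3 and WT 4 (9.01 and 11.3) and at 9.95 to 13.8 in the 6 Cre lists. An intergenic region 195583 bp from Trim52 was called in the same 2 WT lists. All 3 were chosen for their calls, and no test was made.

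Among functional groups, shares are set beside the 5099 genes with a gene-end region in all 4 WT lists, of which 28.1% were kept in at least 5 Cre lists, 7.04% in at most 1 and 9.57% in 6, with a median of 4 lists. The groups are described by counts alone. In the MYC network 5 of 13 genes had such a region, with a median of 5 lists and 3 in at least 5: Mxd1 in 6, and Max and Mxd4 in 5. Of 14 AP-1 and immediate early genes, 7 were kept in at least 5, among them Jun, Jund, Btg1 and Btg2 in all 6, while Fosb was kept in Homo 3 only. Of 12 genes of glucose and lipid metabolism, 7 were kept in at least 5, with the lipogenic enzymes Fasn and Acaca in 6 and Sqle, of sterol synthesis, in 1. Of 8 liver transcription factors, 4 were kept in at least 5, with Cebpb, Nr1h3 and Zbtb20 in 6, Cebpa in 5 and Foxa3 in 2. Median WT rank was 81.5, 70.1, 65.9 and 76.5 in these 4 groups against 62.9 over all 5099 genes, so their regions were also stronger in WT.

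Remodelling and ribosome genes were more mixed. Of 10 SWI/SNF ATPase and core subunits 2 were kept in at least 5 (Smarcc2 and Bcl7c) and 2 in at most 1 (Actl6a and Smarcd1), with Smarca4, the BRG1 ATPase, in 3 (Het 1, Homo 1 and Homo 3). Of the 4 subunits that define BAF or PBAF, Pbrm1 was kept in 6, Phf10 in 5, Dpf2 in 4 and Brd7 in 2. Of 41 mitochondrial ribosomal proteins 12 were kept in at least 5 and 6 in at most 1, with a median of 3 lists. Cytosolic ribosomal proteins had 15 of 50 in at least 5 and 6 of 50 in at most 1, with Rps12, Rps21, Rpl15 and Rpl41 in 6. Nucleolar and ribosome-making MYC targets had 4 of 19 in at least 5 (Npm1, Gnl3 and Nop14 in 6) and Fbl and Polr1b in 1. Metabolic MYC targets had 4 of 11 in at least 5 and none in under 3.

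Proliferation and stress genes also spread over the classes. Of 13 cell cycle genes Ccna2 and Cdkn1b were kept in 6, Mcm3 in 1 and Mcm4 and Mcm5 in 2. Of 14 DNA repair genes 4 were kept in at least 5, among them Rpa1 in 6 and Atm and Brca1 in 5, and Rad18 in 0. Of 8 genes of p53 signalling and apoptosis Apaf1 was kept in 6 and Trp53 in 5, and Diablo and Casp9, both upstream in caspase activation, in Homo 3 only. Proteasome subunits had 2 of 15 in at least 5, aminoacyl-tRNA synthetases 3 of 15, the vacuolar proton pump 2 of 8, oxidative phosphorylation 12 of 38, housekeeping genes 3 of 10, zinc finger genes 25 of 95 and solute carriers 26 of 74. Genes of the differentiated liver are set beside the 23.6% of all 21631 genes that had a gene-end region in all 4 WT lists. None of 20 cytochrome P450 and drug metabolism genes had one, and 2 of 23 plasma protein genes did (Apoa2 in 3 and Rbp4 in 4 lists). Of 20 amino acid and urea cycle genes 4 had one (Glul in 6), a share close to that of all genes, of 25 adhesion and metastasis genes 4 (Ndrg1 and Itgb1 in 5) and of 15 fetal liver genes 1.

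Promoter sequence varied with retention by small amounts. Of 21045 promoters of protein-coding genes in the table, 4674 had their start in a WT region. Median G and C content was 62.7%, 62.7%, 63.3%, 64.2%, 65.0%, 65.0% and 66.7% for promoters kept in 0 to 6 lists, against 56.7% over all promoters. Split into 3 equal bins by G and C content, promoters were kept in a mean of 3.44, 3.66 and 3.78 lists. The highest bin exceeded the lowest within each quintile of WT rank, from 3.06 against 2.46 lists in the weakest to 4.62 against 4.56 in the strongest. Promoters are not independent replicates, and the libraries differ in depth and may differ in base composition, which was not tested.

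The E-box CACGTG was found in 540 of the 4674 promoters (11.6%), against 7.91% of all promoters of the same length. It was in 0.0%, 12.1%, 17.3%, 11.1%, 11.5%, 8.94% and 8.30% of those kept in 0 to 6 lists, the first of only 9 promoters. Promoters with CACGTG were kept in a mean of 3.37 lists and those without in 3.66. The mean was lower with CACGTG in each quintile of WT rank and in each bin of G and C content (3.13 against 3.48, 3.46 against 3.68 and 3.49 against 3.82). Library by library, the share was lower with CACGTG in 2, 4, 6, 5 and 3 of the 6 Cre libraries, from the weakest quintile to the strongest. Among the Cre libraries Het 1 kept 76.5% with and 80.0% without, Het 2 64.8% and 70.2%, Het 3 31.9% and 38.5%, Homo 1 45.7% and 53.7%, Homo 2 19.4% and 24.5%, and Homo 3 99.1% and 98.8%. It was thus lower with CACGTG in 5 of 6. A WT list left out of the choice differed by less, at 0.80, 0.58, −1.61 and −1.89 points in WT 1 to WT 4, so 2 of these 4 were lower as well. These WT lists kept 82.8% to 98.7% of promoters with CACGTG. Like Homo 3 they had less room to differ, so the contrast with the other Cre libraries is not read as particular to Cre. The cyclic AMP element TGACGTCA, bound by CREB and ATF factors, showed the same direction, with 3.28 lists for 184 promoters and 3.64 without. It was lower in the WT lists left out of the choice as well, with differences of −0.68, −0.028, −7.92 and −1.28 points in WT 1 to WT 4, so the direction was not particular to Cre lists. For CCAAT the means were 3.57 and 3.66, for GGGCGG 3.61 and 3.66, for CCGGAAG 3.57 and 3.64 and for the NRF1 motif 3.66 and 3.62. For TATAAA they were 3.55 and 3.63 and for TGANTCA 3.62 and 3.62. A match is a run of letters and not a measured binding site, and 8 motifs were searched.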

How the data were processed

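ATAC-seq was measured in 10 mouse libraries (4 WT, 3 Het, 3 Homo, grouped by title). The submitters' processing notes name Bowtie2, MACS2, deepTools and mm10, without versions or settings. The authors deposited 1 narrowPeak list per library with a score, a fold (ratio), −log10 p and −log10 q values per peak. They served here for ranks, thresholds and thinning inside each list. For named regions they are quoted by library, where −log10 p also depends on depth. Pileup and background were solved from the deposited fold and −log10 p (found for 100% of rows, tolerance 0.001). Read totals are not given, so precision rests on the number of libraries, and calls cover peaks above −log10 p of about 5.

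Rows were merged within lists (Python 3.11.15, numpy 2.4.6, pandas 2.3.3, scipy 1.17.1), joined with at least 1 bp of overlap, and placed against 21631 RefSeq protein-coding genes of GRCm38.p6. Rows on Y and the mitochondrial genome were left out. Library measures were compared by exact permutation over 210 splits (smallest p 0.00476) and shares kept by sign changes over 64 arrangements, two-sided, with Benjamini-Hochberg adjustment. Scripts were tested on simulated data. Alternatives were a stricter threshold, thinned and equal-number lists, overlap over 0.5 of a region, fold in place of −log10 p, other gene-end windows, a replicate block and each library left out.

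Members, the 25 gene lists, motifs and alternatives were chosen with earlier results of these data known. Named regions followed a rule: Arid1a, Alb, Cebpb and Myc, all regions kept in 0 lists, and the highest or lowest ranked of the other classes. Some regions that this rule or the lists name are not reported here.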

Additional observations from a re-analysis of the deposited data

Results flagged for a closer look

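The difference between the strongest and the weakest quintile of WT regions in the share kept was 3.77 percentage points in Homo 3, against 38.1 to 49.3 in the other 5 Cre libraries. The gap between Homo 3 and its nearest neighbour exceeded the limit for a single low value among 6. Of 14 groups of library values examined in this way it was the only one, and chance picks out about 1 in 20. Homo 3 kept 95.6% of the weakest quintile, so its share had little room to rise. Without it the mean difference was 42.0 points over 5 libraries.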

How the results depend on the processing

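The mean number of Cre lists that kept a WT region moved by less than the spread between libraries, and the difference by WT rank kept its sign, in every alternative run. With −log10 p of at least 10, 3274 regions were in all 4 WT lists and 271 of them in all 6 Cre lists, and the rank and width differences were 38.8 and 9.27 points (both adjusted exact permutation p = 0.0625). In lists thinned to equal background these counts were 1537 and 280, and gene-end minus other regions was −20.2 points (adjusted exact permutation p = 0.0312). With equal numbers of rows they were 457 and 177, with 7 regions kept in 0 lists, 1 region in all Cre and no WT list, a width difference of −18.6 points and a gene-end difference of −30.1. With 0.5 of a region covered they were 3031 and 217, with a rank difference of 36.6 and a width difference of −2.27 points. Within quintiles of WT rank, chosen after seeing the data, the gene-end difference was 3.64 points in the weakest, and the width difference, from the weakest to the strongest, was 22.3, 16.8, 21.5, 12.7 and −9.14 points, with none passing the adjusted threshold. Fewer regions enter under each of these settings by construction, and beyond that the cause was not tested.

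Leaving out 1 library at a time gave ranges of 17 to 361 regions kept in 0 lists, 647 to 1218 kept in all Cre lists (highest without Homo 2), 0 to 1 in all Cre and no WT list (1 without WT 4 or Homo 2), and 5173 to 6373 in all WT lists. Differences were −4544 to −2976 regions (adjusted exact permutation p = 0.0212 to 0.19), −2.07 to −1.34 Mb (0.0159 to 0.19), −80.0 to −49.2 bp (0.0159 to 0.19) and −1.54 to 1.04 points of gene-end share. Rank and width differences ranged from 32.9 to 42.0 and from 22.3 to 30.3 points, and gene-end minus other from −8.49 to −1.37.

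Same-numbered libraries did not deviate together (correlations −0.141 to 0.0139), so no pairing by number was seen in this measure. The labels do not say whether equal numbers share a batch. With the replicate block, gene-end share differed by 0.221 points (exact permutation p = 0.963, against −0.231 without the block), and no other call changed. Depth may limit which weak regions can be called, most in Homo 2 by the scaled calculation, whose assumption the strongest regions did not meet.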
